A study of Mus musculus with 15 samples.

Results

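The genes described here make cholesterol, sense it, carry it through the liver cell, send it out of the cell or esterify it. They were taken by gene symbol from a table of 16330 genes in mouse liver, and 33 of the 34 symbols were found. The symbol that was not found was Msmo1, which encodes a sterol C4-methyl oxidase. The table lists Sc4mol, which RefSeq gives as an older symbol of Msmo1; its values are given separately and enter no count. By role, 8 genes act from acetoacetyl-CoA to farnesyl diphosphate, 10 act from the making of squalene to cholesterol, and 4 sense sterol. Another 6 serve uptake and movement inside the cell, and 5 serve efflux and esterification. All 33 passed the filter on low values, which left 13570 genes to test.

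Liver RNA was sequenced in 15 libraries of 4 groups, each defined by a construct and a gavage. The constructs were LbNOX, a bacterial enzyme that oxidises NADH to NAD+ with formation of water, and luciferase, a light-producing enzyme. The groups were LbNOX after ethanol (3 libraries, M13 to M15), LbNOX after water (4 libraries, M6 to M9), luciferase after ethanol (3 libraries, M10 to M12) and luciferase after water (5 libraries, M1 to M5). Livers were taken 6 h after the gavage, and the comparisons ask how ethanol changed the liver with each construct. The series' own design note names wild type and ChREBP mice, but titles and table header name luciferase and LbNOX, and the titles were followed here. How the constructs were delivered, and the strain, sex and age of the mice, are not given in the sources used here. No source used here states that the libraries came from separate mice, so p-values measure the spread between these libraries.

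The LbNOX libraries held 10.6 to 15.7 M reads after ethanol and 13.7 to 20.6 M reads after water. The luciferase libraries held 12.2 to 14.4 M reads after ethanol and 14.5 to 23.7 M reads after water. The 33 genes took 0.283% to 0.387% of the reads of a library. All 8 hepatocyte markers looked up were present, with a summed level of 577939 to 986073 normalized counts. Library M8 of LbNOX water held the highest level of the 5 intestine and pancreas markers, 4774 normalized counts against 2030 in the lowest library of its group, and library M3 of luciferase water had the lowest median correlation with its own group, 0.928 against 0.950 in the best library. M3 and M8 each also held the highest summed Kupffer, neutrophil, endothelial and cholangiocyte markers of their group. For the hepatocyte markers, M8 was the lowest library of its group and M3 the highest of its own. Counts of called genes without M3 and M8 are therefore given with the results they change.

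Cholesterol is built in the endoplasmic reticulum and cytosol from acetyl-CoA, by way of mevalonate, squalene and lanosterol. When sterols are scarce in the membrane, the escort protein SCAP carries the transcription factor SREBP2 to the Golgi, where it is cut and released to switch on genes of synthesis and uptake; the INSIG proteins hold SCAP back when sterols are plentiful. Sterol-derived oxysterols activate the LXR receptors, which switch on efflux pumps such as ABCA1 and the ABCG5 and ABCG8 pair. The liver is the main organ that balances these routes, since it also takes up lipoproteins and secretes cholesterol into bile.

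In luciferase livers, ethanol changed a minority of these genes, in opposite directions. Aacs, Stard4, Abca1 and Scap rose, and Insig1, Mvd, Hmgcs1, Fdft1 and Srebf2 fell. The largest change was that of Aacs, 3.90-fold higher, and the largest fall was that of Insig1, to 0.514 of its level after water. By limma with Benjamini-Hochberg adjustment over all genes tested, 4 of 33 were called higher and 5 lower at an adjusted p below 0.05, which is 27.3% of the genes against 7.75% of all genes tested (4.62% higher and 3.13% lower). An unadjusted p below 0.05 was found for 16 of 33, where 21.1% of all genes had one. The groups did not overlap, with ethanol higher, for 4 genes (8.32% of all genes) and, with ethanol lower, for 9 genes (6.39% of all genes). The median log2 fold change of the 33 was 0.03 (−0.03 without M3 and M8), beside 0.01 over all genes, with 18 of 33 above 0. The counts rest partly on single libraries: without M10, 2 were called higher and 2 lower, without M11 the lower calls numbered 2, and they numbered 3 without M2, M3, M5, M7, M12 or M13. Fitting the luciferase libraries alone ended the calls of Mvd, Fdft1, Srebf2 and Scap (limma adjusted p = 0.129, 0.0771, 0.120 and 0.0879, in that order), and leaving out M3 and M8 together ended those of Mvd and Srebf2.

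**Figure D1:**
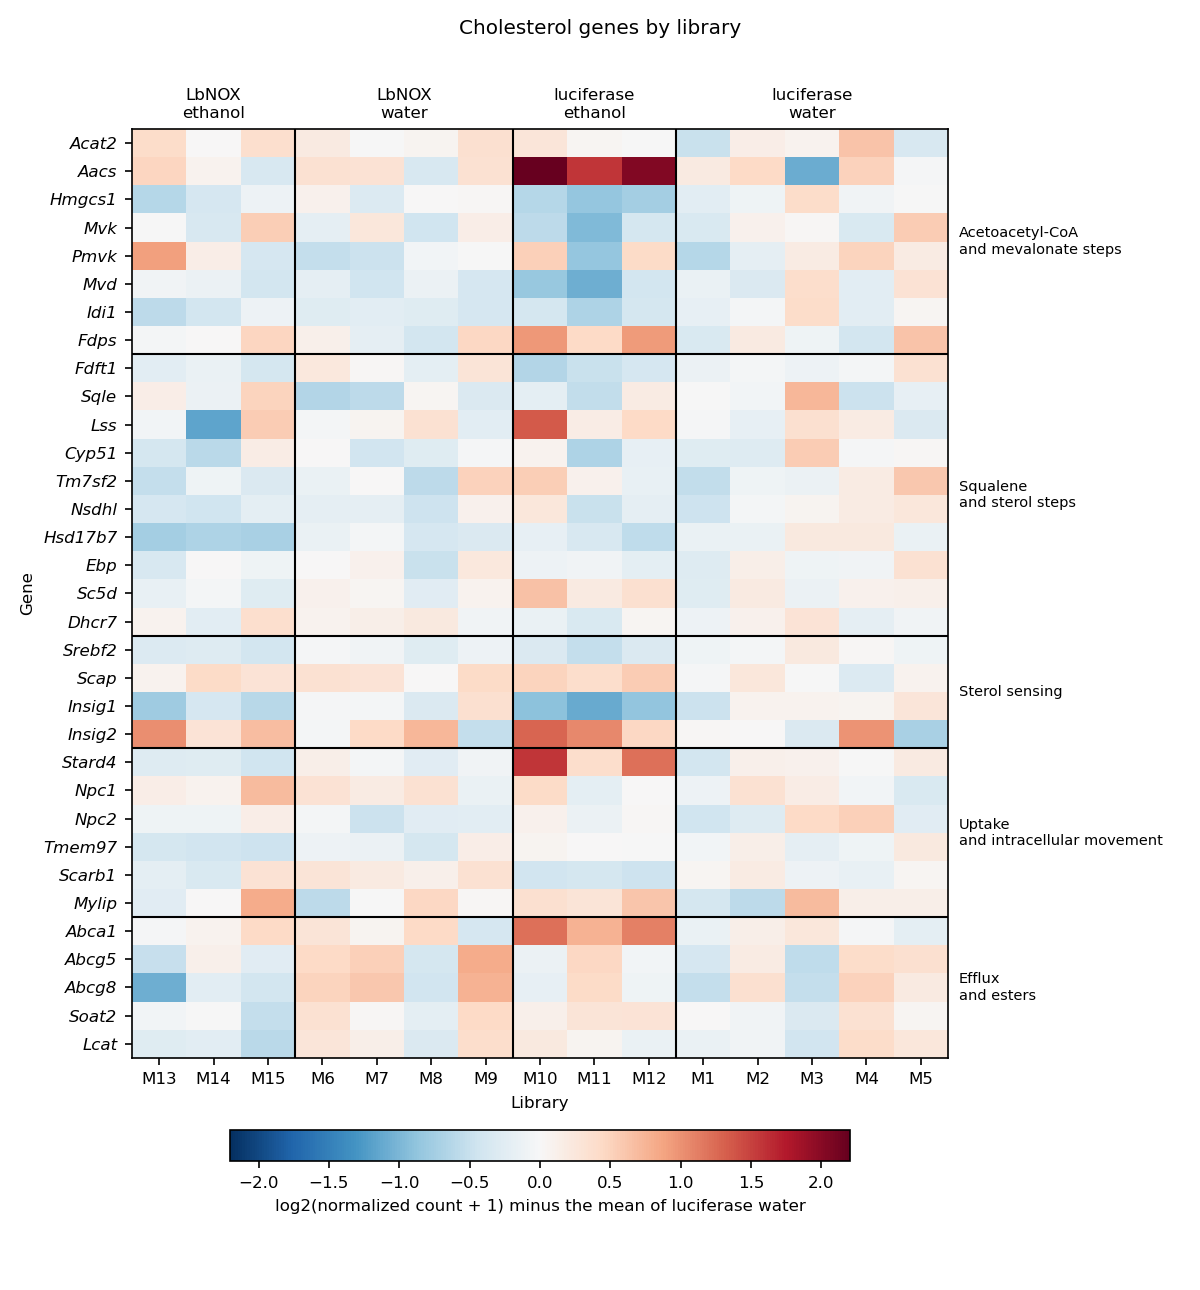
Heat map of the 33 genes (rows, by role) in the 15 libraries (columns, by group), as log2 of the normalized count plus 1 minus the mean of the luciferase water libraries. Aacs, Stard4 and Abca1 are red in the 3 luciferase ethanol libraries, and Hmgcs1, Mvd, Fdft1, Srebf2 and Insig1 are blue there.

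The windows before the start sites of called genes are shown so that genes that fell and genes that rose can be compared by the letters they hold. RefSeq windows on build GRCm38.p6 were at hand for 27 of the 34 genes named. The 250 bases before each annotated start were searched on both strands. Among the genes with no window at hand were Stard4, which rose, and Fdft1, which fell. Capitals mark CCAAT, the box bound by NF-Y, a factor known to act together with SREBP2, in either orientation. They also mark CACGTG, the E-box bound by factors of the basic helix-loop-helix family, and TCACNCCAC, the form of the sterol regulatory element searched here. Where GENCODE vM21 places the gene's start before that of RefSeq (Aacs, Srebf2 and Insig1), the printed stretch ends there. Of the genes that fell, Hmgcs1 is shown at chr13:119690101-119690350 (plus strand), Mvd at chr8:122443423-122443672 (minus strand), Insig1 at chr5:28071162-28071362 (plus strand) and Srebf2 at chr15:82147019-82147180 (plus strand). Of the genes that rose, Aacs is shown at chr5:125475623-125475813 (plus strand) and Abca1 at chr4:53159896-53160145 (minus strand). The windows of Scap, which also rose, were searched but are not printed. All are written 5′ to 3′ on the strand of the gene.
Hmgcs1: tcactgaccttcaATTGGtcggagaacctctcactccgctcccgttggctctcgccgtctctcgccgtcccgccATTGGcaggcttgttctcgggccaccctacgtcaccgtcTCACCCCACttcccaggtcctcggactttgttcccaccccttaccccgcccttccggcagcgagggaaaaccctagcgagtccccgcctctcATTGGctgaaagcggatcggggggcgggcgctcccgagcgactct
Mvd: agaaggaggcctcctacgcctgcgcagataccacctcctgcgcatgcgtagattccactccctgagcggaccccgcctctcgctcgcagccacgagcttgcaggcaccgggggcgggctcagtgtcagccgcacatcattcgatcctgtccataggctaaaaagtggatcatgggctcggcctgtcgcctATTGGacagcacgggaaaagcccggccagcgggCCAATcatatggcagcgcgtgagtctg
Insig1: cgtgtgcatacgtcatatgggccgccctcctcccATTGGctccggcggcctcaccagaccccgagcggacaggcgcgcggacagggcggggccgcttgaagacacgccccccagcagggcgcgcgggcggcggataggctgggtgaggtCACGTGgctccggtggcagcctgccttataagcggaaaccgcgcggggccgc
Srebf2: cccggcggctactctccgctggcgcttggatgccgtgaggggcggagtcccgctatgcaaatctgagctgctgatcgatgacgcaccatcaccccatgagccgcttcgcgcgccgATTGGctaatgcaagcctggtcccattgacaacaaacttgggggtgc
Aacs: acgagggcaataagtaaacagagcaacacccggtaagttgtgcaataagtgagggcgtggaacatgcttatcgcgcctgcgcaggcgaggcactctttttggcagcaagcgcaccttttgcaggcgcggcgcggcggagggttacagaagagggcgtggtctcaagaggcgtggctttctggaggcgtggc
Abca1: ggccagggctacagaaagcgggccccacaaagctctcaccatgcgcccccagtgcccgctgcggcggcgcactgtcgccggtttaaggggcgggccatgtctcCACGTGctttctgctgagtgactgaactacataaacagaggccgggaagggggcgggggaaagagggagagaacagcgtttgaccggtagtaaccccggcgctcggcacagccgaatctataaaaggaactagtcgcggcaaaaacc

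All 4 genes that fell and have a window hold CCAAT in it, and none of the 3 that rose and have a window does (Aacs, Scap and Abca1). Among genes that were not called, 17 of 19 with a window hold it, so most genes of the set hold the box whatever their call. Over the 27 genes with a window, 22 hold CCAAT (81.5%), against 37.5% of the 27025 genes with a RefSeq window at hand. For this and the other motifs, that background takes in all genes with a window, not only those tested in these livers. Hmgcs1 holds CCAAT in 3 places, of which the nearest begins 45 bases before the start. Mvd holds it in 2 places, beginning 60 and 27 bases before the start. Positions are counted from the RefSeq start, and the printed Insig1 stretch leaves off the 49 bases next to that start. The E-box stands in 6 of 27 (22.2%, against 6.86% of all genes): Abca1, 147 bases before the start, Insig1, 101 bases before it, Scap, in the second of its 2 windows, and Dhcr7, Hsd17b7 and Sc5d, which were not called. The form TCACNCCAC of the sterol regulatory element was matched in Hmgcs1 alone (3.7% of 27, against 1.22% of all genes). In Hmgcs1 it begins 137 bases before the start. The LXR direct repeat in its exact form, AGGTCA written again after 4 bases of any kind, was matched in 0 of 27. Only 4 of 27025 genes hold that form (0.0148%), so 0 of 27 cannot tell whether these windows, that of Abca1 among them, hold an LXR site. The GC box GGGCGG was matched in 22 of 27 (81.5%, against 35.4%). These motifs do not overlap in the printed windows. A match is a description of letters, and no match says only that these letters are not in the window. Forms of a motif that differ from the searched letters were not looked for.

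**Figure D2:**
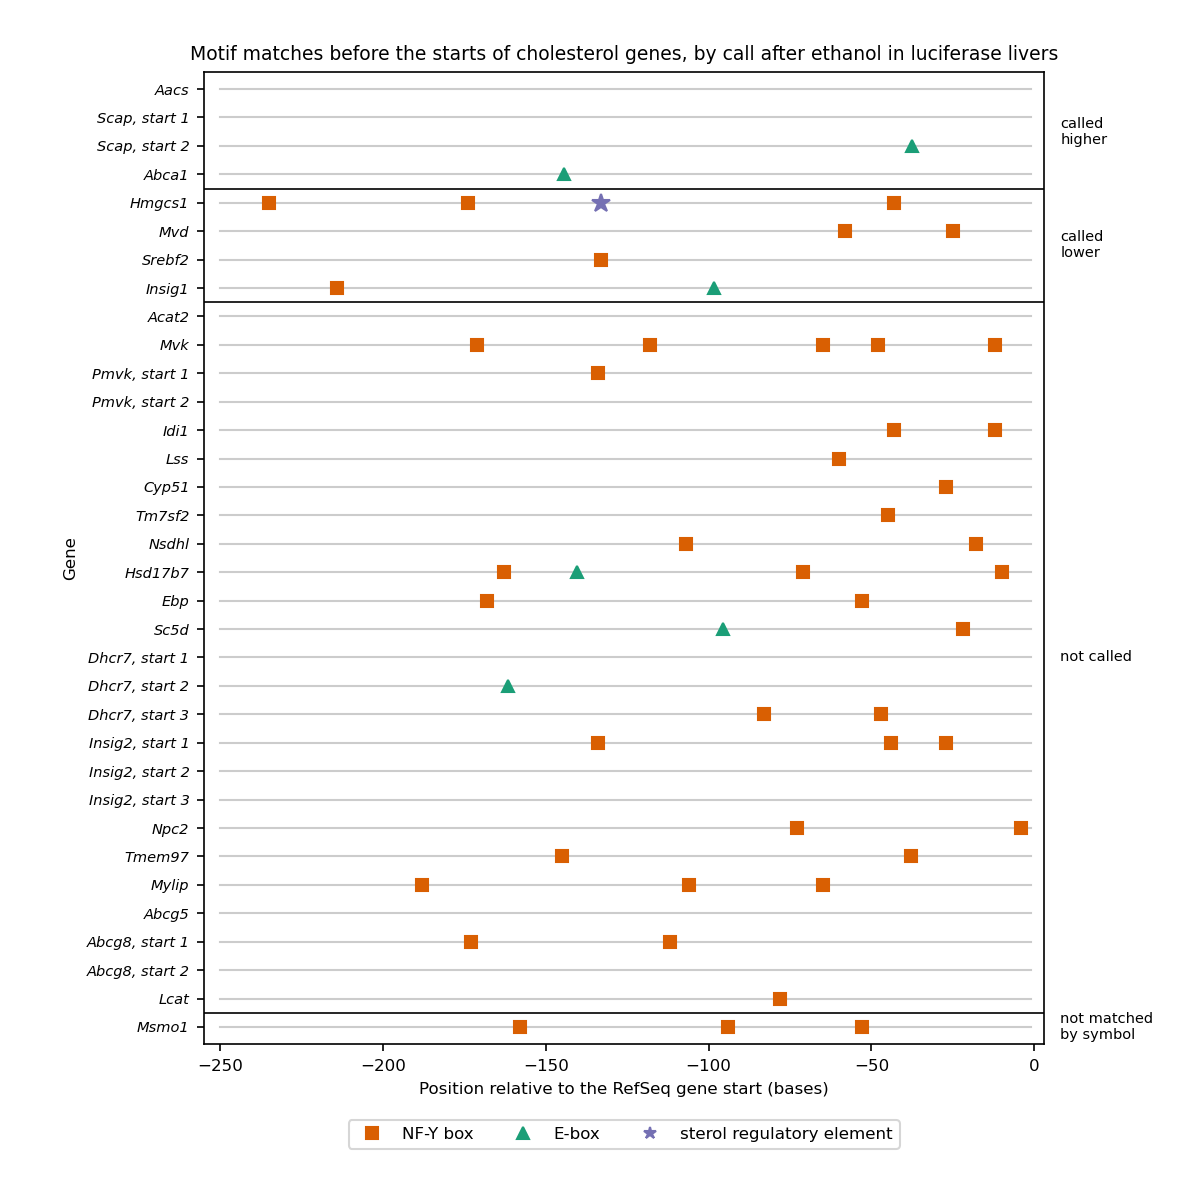
Matches of the NF-Y box (squares), the E-box (triangles) and the sterol regulatory element (star) along the 250 bases before each RefSeq start, in bases from the start (x axis), by gene and window (rows), grouped by the call after ethanol in luciferase livers. Squares stand in all 4 rows of genes called lower and in none of the rows of genes called higher, and also in most rows of genes not called.

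Among the genes of the steps from acetoacetyl-CoA to farnesyl diphosphate, Aacs rose while Hmgcs1 and Mvd fell after ethanol in luciferase livers. Aacs encodes acetoacetyl-CoA synthetase, which activates ketone bodies in the cytosol for lipid synthesis; the gene spans bases 125475814 to 125517410 of chromosome 5 on the plus strand. It had 4865, 3003 and 4137 normalized counts in the luciferase ethanol libraries, against 1148, 1357, 470, 1431 and 983 in the luciferase water libraries. Every ethanol library was above every water library, and M3 was the lowest of the water libraries. Means were 4002 ± 939 after ethanol (SD, n = 3) and 1078 ± 383 after water (SD, n = 5), a log2 fold change of 1.96 (SE 0.32, limma adjusted p = 0.00181). The call of Aacs held in all 25 alternatives run, among them each library left out in turn.

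Hmgcs1 encodes the cytosolic HMG-CoA synthase, which condenses acetoacetyl-CoA with acetyl-CoA. It had 2025, 1746 and 1868 normalized counts in luciferase ethanol libraries, against 2669, 2945, 4149, 2974 and 3130 in luciferase water libraries. The groups did not overlap, and the log2 fold change was −0.74 (SE 0.15, limma adjusted p = 0.00814), a call that also held in all 25 alternatives. Mvd encodes mevalonate diphosphate decarboxylase, which makes isopentenyl diphosphate. Its levels were 55.7, 46.6 and 74.8 normalized counts in luciferase ethanol libraries, against 90.5, 80.0, 130, 84.4 and 124 in luciferase water libraries. The groups were apart by a small margin, and the log2 fold change was −0.77 (SE 0.21, limma adjusted p = 0.0388). The call of Mvd was lost without M1, M3, M5, M6, M7, M10, M11, M13 or M14, with limma adjusted p from 0.0501 to 0.167. An antisense gene overlaps Hmgcs1 and a protein-coding gene on the other strand overlaps Mvd in GENCODE vM21; whether the counting used strand is not given in the sources used here.

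The other 5 genes of these steps were not called. Idi1, which isomerises isopentenyl diphosphate, had 1334 to 1628 normalized counts in luciferase ethanol libraries, against 1824 to 2822 in luciferase water libraries. That is a log2 fold change of −0.49 (limma adjusted p = 0.0544) between groups that did not overlap. Mvk, mevalonate kinase, had 65.3 to 98.5 in luciferase ethanol libraries, against 102 to 190 in luciferase water libraries (−0.65, limma adjusted p = 0.154). Fdps, which makes farnesyl diphosphate, stood on the other side with 983 to 1406 in luciferase ethanol libraries, against 547 to 1123 in luciferase water libraries (0.78, limma adjusted p = 0.0684). Pmvk, phosphomevalonate kinase, was at 0.03 and Acat2, an acetoacetyl-CoA thiolase with a near-identical paralog that may share its reads, was at 0.10 on the log2 scale. The steps of this stretch therefore had estimates from −0.77 to 1.96 and did not share a direction.

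From the making of squalene to cholesterol, Fdft1 was the single gene of 10 called in luciferase livers. Fdft1 encodes squalene synthase, the committed step to sterols. It had 747, 834 and 897 normalized counts in luciferase ethanol libraries, against 1063, 1132, 1072, 1137 and 1461 in luciferase water libraries. No ethanol library reached the water libraries, and M5 stood above the other water libraries; the log2 fold change was −0.50 (SE 0.14, limma adjusted p = 0.0374). The call of Fdft1 was lost without M2, M5, M7, M10, M11, M12 or M13 (limma adjusted p from 0.0501 to 0.176) and without the mean-variance trend (0.0552). Its locus overlaps Ctsb on the other strand. Over the 10 genes the median was −0.15 on the log2 scale, between −0.50 and 0.65. The highest was Lss, lanosterol synthase, with 864, 377 and 456 normalized counts in luciferase ethanol libraries, against 272 to 430 in luciferase water libraries (0.65, limma adjusted p = 0.283); M10 alone was far above the rest. Sc5d, a sterol desaturase late in the pathway, was at 0.40 (limma adjusted p = 0.106), and Hsd17b7, a sterol ketone reductase, was at −0.36 (limma adjusted p = 0.123). Sqle, squalene epoxidase, an early oxygen-dependent step, was at −0.19 with groups that overlapped widely, 431 to 710 in luciferase ethanol libraries and 449 to 1039 in luciferase water libraries. Cyp51, Tm7sf2, Nsdhl, Ebp and Dhcr7, which remove methyl groups from, reduce or isomerise the sterol ring on the way to cholesterol, lay between −0.26 and 0.16.

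The gene listed as Sc4mol had 460, 471 and 590 normalized counts in luciferase ethanol libraries, against 834, 1096, 1140, 694 and 1397 in luciferase water libraries. Here too the groups were apart, and the log2 fold change was −0.99 (SE 0.29, limma adjusted p = 0.0486). That call was lost without M1, M2, M3, M5, M6, M7, M10, M11, M12 or M14 (limma adjusted p from 0.0613 to 0.176). It was also lost without M3 and M8 together (limma adjusted p = 0.0725), without the mean-variance trend (0.0696), with no filter on low values (0.0532) and by edgeR on the recovered reads (adjusted p = 0.0504).

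Single libraries stood out within the groups for the 18 synthesis genes. In luciferase ethanol, M10 was the highest library for 11 of 18 (36.5% of all genes) and M11 the lowest for 13 of 18 (34.9% of all genes). In luciferase water, M3 was the highest for 8 of 18 (26.8% of all genes) and M1 the lowest for 10 of 18 (13.1% of all genes). The median SD within a group on the log2 scale was 0.23 for the 33 genes in luciferase ethanol and 0.28 in luciferase water, beside 0.23 and 0.32 over all genes.

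Of the 4 genes of sterol sensing, Insig1 and Srebf2 fell, Scap rose and Insig2 was not called in luciferase livers. Insig1 encodes the sterol-regulated retention protein of the endoplasmic reticulum and is itself a target of SREBP2. It had 1502, 1308 and 1539 normalized counts in luciferase ethanol libraries, against 2015, 2961, 2967, 2940 and 3382 in luciferase water libraries. The ethanol libraries lay in a narrow band below every water library, of which M1 was the lowest. The means were 1450 ± 124 after ethanol (SD, n = 3) and 2853 ± 504 after water (SD, n = 5), a log2 fold change of −0.96 (SE 0.17, limma adjusted p = 0.00346), and the call held in all 25 alternatives. Insig2, whose product acts like that of Insig1 but whose liver transcript is known to fall under insulin, had 5757, 4939 and 3283 normalized counts in luciferase ethanol libraries, against 2429, 2408, 1910, 4730 and 1455 in luciferase water libraries. The groups overlapped because of M4; the log2 fold change was 0.93 (SE 0.35, limma adjusted p = 0.129) and 1.18 without M4 (limma adjusted p = 0.0255).

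Srebf2 encodes SREBP2. Its levels were 562, 486 and 561 normalized counts in luciferase ethanol libraries, against 656, 675, 809, 711 and 653 in luciferase water libraries. All ethanol libraries were below all water libraries, and the log2 fold change was −0.38 (SE 0.10, limma adjusted p = 0.0341). Its call was lost without M2, M3, M10, M11 or M12 (limma adjusted p from 0.0550 to 0.148). The Srebf2 locus also holds the microRNA gene Mir33. Scap had 1836, 1718 and 1922 normalized counts in luciferase ethanol libraries, against 1283, 1562, 1309, 1069 and 1384 in luciferase water libraries, a log2 fold change of 0.48 (SE 0.13, limma adjusted p = 0.0395) between groups that did not overlap. That call was lost without M1, M3, M4, M6, M7, M10, M11, M12 or M15 (limma adjusted p from 0.0501 to 0.143), with quantile normalization (0.0662) and without the mean-variance trend (0.0575).

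Among the 6 genes of uptake and intracellular movement, Stard4 rose in luciferase livers and the others were not called. Stard4 encodes a soluble carrier that moves cholesterol between membranes, and like Hmgcs1 and Insig1 it is known as a gene that SREBP2 switches on. It had 3636, 1597 and 2832 normalized counts in luciferase ethanol libraries, against 931, 1326, 1311, 1217 and 1410 in luciferase water libraries. All ethanol libraries were above all water libraries, M11 by a small margin. The log2 fold change was 1.05 (SE 0.21, limma adjusted p = 0.00653), opposite in sign to those of Hmgcs1 and Insig1, and without M10 it was 0.79 (limma adjusted p = 0.0506). Scarb1, the receptor that takes up cholesteryl esters from HDL, had 2074, 2131 and 2029 normalized counts in luciferase ethanol libraries, against 2482 to 3161 in luciferase water libraries (−0.42, limma adjusted p = 0.0767), with no overlap. Mylip, which encodes an LXR-induced ubiquitin ligase that removes lipoprotein receptors, was at 0.42 with overlapping groups. Npc1 and Npc2, which export cholesterol from lysosomes, and Tmem97, an endoplasmic reticulum protein that lowers NPC1, were at 0.07, −0.01 and 0.02 on the log2 scale.

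Of the 5 genes of efflux and esterification, Abca1 rose in luciferase livers and the others stood near their water levels. Abca1 encodes the pump that loads cholesterol onto apolipoprotein A-I to form HDL; the gene spans bases 53030787 to 53159895 of chromosome 4 on the minus strand. It had 10161, 7435 and 9451 normalized counts in luciferase ethanol libraries, against 3964, 4792, 5220, 4322 and 3783 in luciferase water libraries. The lowest ethanol library was well above the highest water library. Means were 9015 ± 1414 after ethanol (SD, n = 3) and 4416 ± 592 after water (SD, n = 5), a 2.04-fold difference (log2 1.03, SE 0.18, limma adjusted p = 0.00326), and the call held in all 25 alternatives. In bulk tissue, a change in the number of cells of a type and a change in the RNA of each cell cannot be told apart. The 5 markers of stellate cells summed to 2390 to 2586 normalized counts in luciferase ethanol libraries, against 1685 to 2393 in luciferase water libraries; none of the 5 was called or at 0 in any library. The 6 of 7 Kupffer cell markers found summed to 751 to 927 in luciferase ethanol libraries, against 863 to 2181 in luciferase water libraries, with none of the 5 tested called and none at 0 in these groups. The 3 of 4 adipose markers found summed to 64.1 to 76.2 in luciferase ethanol libraries, against 24.6 to 68.0 in luciferase water libraries, where Adipoq and Lep were at 0 in some library; none of the 2 tested was called. The 4 of 5 cholangiocyte markers found had a median log2 fold change of 1.06 after ethanol in luciferase livers, with 0 of 4 called and none at 0. Krt19 averaged 121 ± 104 normalized counts in luciferase ethanol libraries and 24.9 ± 13.4 in luciferase water libraries (SD, n = 3 and 5), while the sum of the 4 was 778 to 996 in luciferase ethanol libraries, against 739 to 1577 in luciferase water libraries. The part of these cells in the results was not tested. Abcg5 and Abcg8, which form the sterol pump of the bile canaliculus, were at 0.09 and 0.05 on the log2 scale, Soat2, which esterifies cholesterol inside hepatocytes, was at 0.23, and Lcat, which esterifies it in plasma, was at 0.04; none of them was called (limma adjusted p from 0.498 to 0.957).

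**Figure D3:**
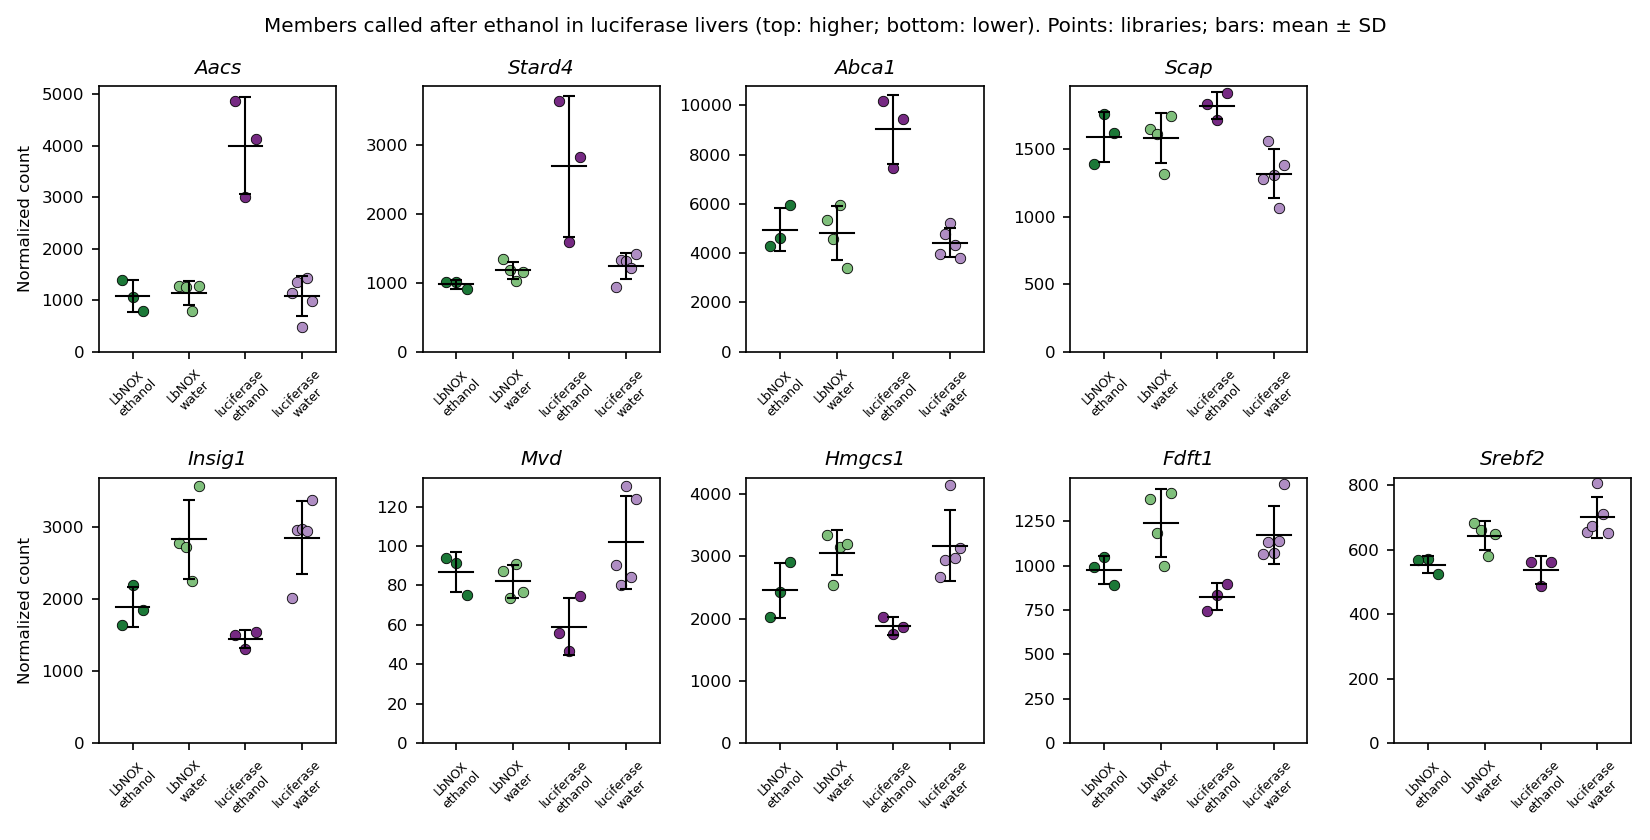
Normalized counts (y axis, from 0) of the 9 genes called after ethanol in luciferase livers, with 1 point per library and the mean ± SD of each group (x axis). For Aacs, Stard4 and Abca1 the 3 luciferase ethanol libraries stand above all other libraries, while for Insig1 and Hmgcs1 they stand at or near the bottom.

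In LbNOX livers, no gene of the set passed the test after ethanol. By limma, 0 of 33 were called, where 0.00737% of all genes were, and 7 had an unadjusted p below 0.05 (11.6% of all genes). By edgeR and DESeq2 on the recovered reads, 0 of 33 were called as well. The smallest adjusted p belonged to Hsd17b7, with 275, 289 and 283 normalized counts in LbNOX ethanol libraries, against 417, 452, 357 and 370 in LbNOX water libraries (log2 fold change −0.49, SE 0.14, limma adjusted p = 0.182). Insig1 had 1633, 2189 and 1848 in LbNOX ethanol libraries, against 2779, 2719, 2248 and 3574 in LbNOX water libraries (−0.57, SE 0.18, limma adjusted p = 0.230). In both cases every ethanol library was below every water library. The groups did not overlap, with ethanol lower, for Hsd17b7, Srebf2, Insig1, Stard4 and Tmem97 (5 genes; 5.49% of all genes) and, with ethanol higher, for 0 genes (5.42% of all genes). The median over the 33 was −0.11, beside −0.0039 over all genes, and −0.22 without M8. The 5 intestine and pancreas markers summed to 1230 to 1800 normalized counts in LbNOX ethanol libraries, against 2030 to 4774 in LbNOX water libraries, with 0 of 5 called and Prss2 at 0 in some library of each group. The 5 of 7 neutrophil markers tested had a median log2 fold change of 1.96 in this comparison, with 0 of 5 called, and all 7 summed to 177 to 674 in LbNOX ethanol libraries, against 114 to 295 in LbNOX water libraries. Ngp and Ltf were at 0 in some LbNOX ethanol library, and these as well as S100a8 and Retnlg in some LbNOX water library. The part of these cells in these values was not tested. For the genes called higher after ethanol with luciferase, the LbNOX estimates lay near 0 or below: Aacs was at −0.09 (95% interval −0.81 to 0.62), Stard4 at −0.27 (−0.74 to 0.20), Abca1 at 0.06 (−0.35 to 0.47) and Scap at 0.01 (−0.29 to 0.30). Hmgcs1 was at −0.33 (−0.67 to 0.02), Fdft1 at −0.34 (−0.64 to −0.03), Srebf2 at −0.22 (−0.45 to 0.01) and Mvd at 0.08 (−0.40 to 0.56), none of them called.

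**Figure D4:**
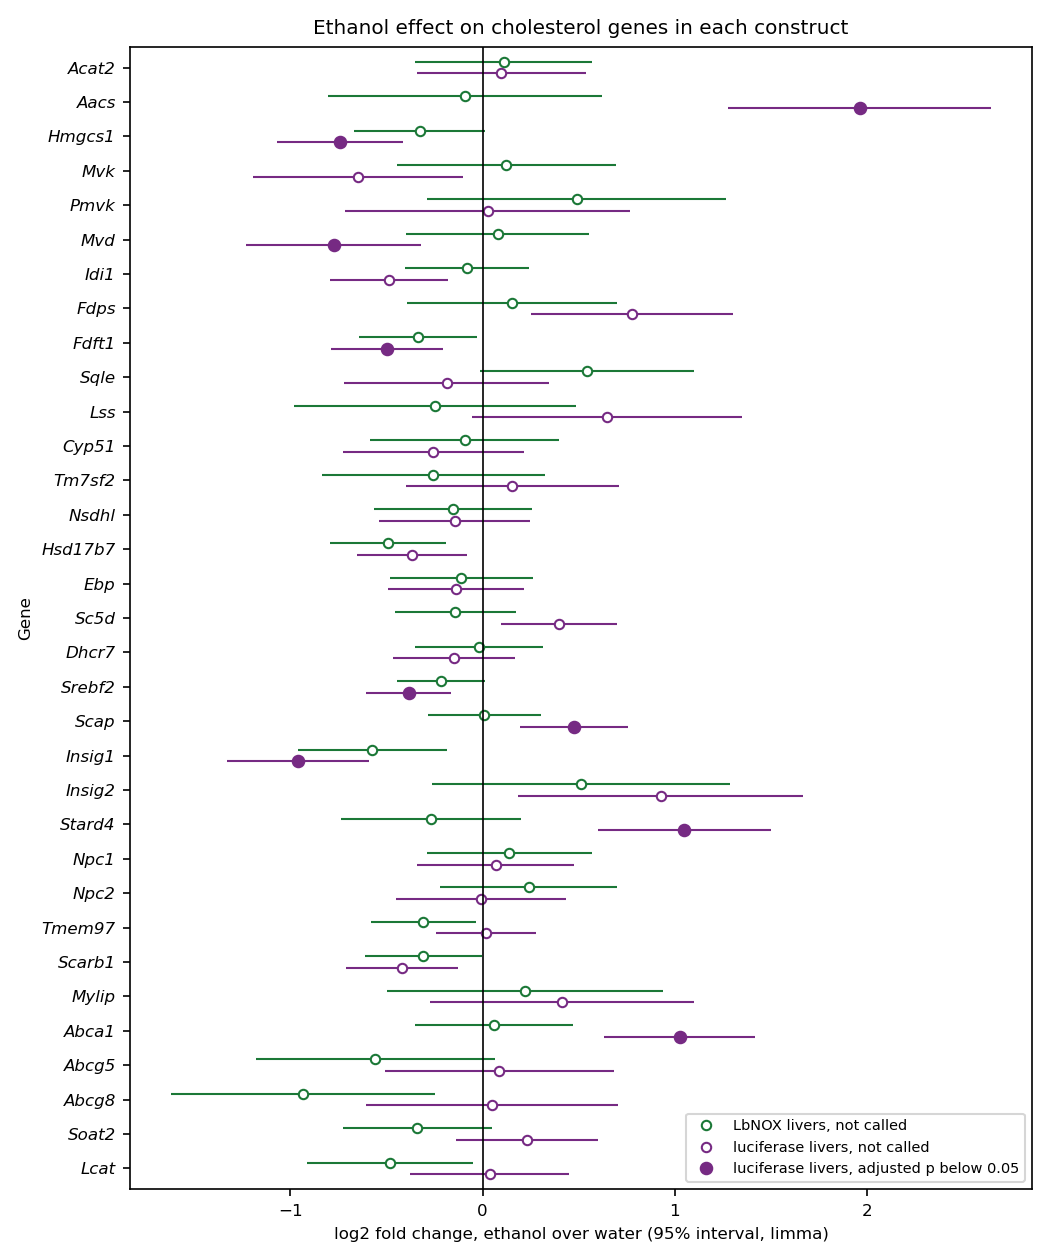
Log2 fold change of ethanol over water for each of the 33 genes (rows) in LbNOX livers (green) and luciferase livers (purple), with 95% intervals from limma; filled marks are called. The 9 filled marks are all in luciferase livers, and the green mark of Aacs lies at −0.09 where the purple mark lies at 1.96.

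Of the 5 genes of efflux and esterification, 4 had estimates below 0 after ethanol in LbNOX livers, and that of Abcg8 was the lowest. Abcg8 had 522, 932 and 828 normalized counts in LbNOX ethanol libraries, against 1552, 1655, 822 and 1881 in LbNOX water libraries. M8 was the low water library and brought the groups to overlap; the log2 fold change was −0.93 (SE 0.32, limma adjusted p = 0.280). Abcg5 had 567, 870 and 680 in LbNOX ethanol libraries, against 1086, 1159, 617 and 1409 in LbNOX water libraries (−0.56, limma adjusted p = 0.487). By 1 of the 2 RefSeq starts of Abcg8, these genes lie head to head on chromosome 17. The window of that start, 84682871 to 84683120, overlaps the Abcg5 window, 84683012 to 84683261. The other Abcg8 window, 84676052 to 84676301, does not overlap the Abcg5 window and lies within the Abcg5 gene body. The gene bodies overlap on opposite strands. The ratio of Abcg8 to Abcg5 was 0.920 to 1.22 in LbNOX ethanol libraries, against 1.33 to 1.43 in LbNOX water libraries, and it was 1.32 to 1.35 in luciferase ethanol libraries, against 1.23 to 1.54 in luciferase water libraries. The ratio was chosen after the values were seen and was not tested. Soat2 and Lcat were at −0.34 and −0.48 in LbNOX livers, and neither was called.

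Without ethanol, no gene of the set passed the test between the constructs. Between LbNOX water and luciferase water livers, 0 of 33 were called by limma, as were 0% of all genes. By limma 1 gene, Scap, had an unadjusted p below 0.05 (3.24% of all genes), at a log2 fold change of 0.26. Of the 33, edgeR and DESeq2 on recovered reads called 0. Over all genes, edgeR called 0, DESeq2 called 18, and limma without M3 and M8 called 2. The groups did not overlap for 1 gene, Idi1, which had 1644 to 1821 normalized counts in LbNOX water libraries, against 1824 to 2822 in luciferase water libraries (0.619% of all genes did so in that direction). The 33 estimates ran from −0.37 to 0.36 on the log2 scale with a median of −0.01. Of the 18 synthesis genes 13 had estimates below 0, and the 5 genes of efflux and esterification were above 0, with a median of 0.14; none was called. The median over the 33 was 0.05 without M3 and M8.

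After ethanol, LbNOX livers had less Aacs, Stard4 and Abca1 than luciferase livers. By limma 0 of 33 were called higher and 3 lower, which is 9.09% of the genes against 6.06% of all genes (2.24% higher and 3.82% lower). Aacs had 1398, 1062 and 785 normalized counts in LbNOX ethanol libraries, against 4865, 3003 and 4137 in luciferase ethanol libraries (log2 fold change −1.90, SE 0.36, limma adjusted p = 0.00715). Stard4 had 1007, 1017 and 904 in LbNOX ethanol libraries, against 3636, 1597 and 2832 in luciferase ethanol libraries (−1.38, SE 0.23, limma adjusted p = 0.00398). Abca1 had 4298, 4602 and 5938 in LbNOX ethanol libraries, against 10161, 7435 and 9451 in luciferase ethanol libraries (−0.87, SE 0.21, limma adjusted p = 0.0243). No library of one group reached the other for any of these genes. The calls of Aacs and Stard4 held in all 25 alternatives, while that of Abca1 was lost with quantile normalization (limma adjusted p = 0.137) and without M10, M12, M13 or M14 (limma adjusted p from 0.0639 to 0.103). These values share the luciferase ethanol libraries with the comparison of ethanol and water in luciferase livers and are no second measurement of it. Stellate markers summed to 1855 to 2156 in LbNOX ethanol libraries, against 2390 to 2586 in luciferase ethanol libraries, with 0 of 5 called. Adipose markers summed to 1.38 to 15.7 in LbNOX ethanol libraries, where Adipoq, Lep and Cfd were at 0 in some library, against 64.1 to 76.2 in luciferase ethanol libraries, and neither of the 2 tested was called. Kupffer cell markers summed to 877 to 1680 in LbNOX ethanol libraries, where Timd4 was at 0 in some library, against 751 to 927 in luciferase ethanol libraries, with 0 of 5 called. Cholangiocyte markers had a median log2 fold change of −0.79 with 0 of 4 called, and neutrophil markers one of 0.78 with 0 of 5 called. Their part in these results was not tested.

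The genes that ethanol lowered in luciferase livers did not pass between the constructs after ethanol. Insig1 had 1633 to 2189 normalized counts in LbNOX ethanol libraries, against 1308 to 1539 in luciferase ethanol libraries (0.38, limma adjusted p = 0.286). Hmgcs1 had 2030 to 2913 in LbNOX ethanol libraries, against 1746 to 2025 in luciferase ethanol libraries (0.37, limma adjusted p = 0.229). For both genes the groups did not overlap, but the lowest LbNOX and the highest luciferase library were close together. Mvd was at 0.57 (limma adjusted p = 0.186), Fdft1 at 0.24 and Srebf2 at 0.05. In the other direction, Sc5d was at −0.55 (limma adjusted p = 0.0543) and Tmem97 at −0.45 (limma adjusted p = 0.0698). All 5 genes of efflux and esterification had estimates below 0, with a median of −0.43. Over the 33 genes the groups did not overlap, with LbNOX higher, for 5 (14.1% of all genes) and, with LbNOX lower, for 9 (15.4% of all genes), and 13 had an unadjusted p below 0.05 (21% of all genes). The count of genes called lower was 5 without M8, where Sc5d and Tmem97 joined, and 2 without M10, M12, M13 or M14.

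The test of the difference between the ethanol effects, LbNOX minus luciferase, called Aacs and Stard4. That is 2 of 33, or 6.06% of the genes against 1.67% of all genes (0.427% higher and 1.25% lower). The difference was −2.05 for Aacs (SE 0.46, limma adjusted p = 0.0398), whose ethanol effect was −0.09 in LbNOX livers and 1.96 in luciferase livers. It was −1.32 for Stard4 (SE 0.30, limma adjusted p = 0.0449), with −0.27 in LbNOX livers and 1.05 in luciferase livers. Both stood near the threshold: the Aacs call was lost without M1, M5, M6, M7, M9, M10, M12, M13, M14 or M15 (limma adjusted p from 0.0526 to 0.125), and the Stard4 call without any library other than M5, M8 or M11 (0.0533 to 0.124). Both calls were lost as well when the mean-variance trend was left out. Abca1 had a difference of −0.97 (SE 0.27, limma adjusted p = 0.0862), which passed by DESeq2 on recovered reads (adjusted p = 0.0111) and without M9. For the genes that fell in luciferase livers the differences were 0.39 for Insig1 (95% interval −0.15 to 0.92), 0.41 for Hmgcs1 (−0.06 to 0.89), 0.85 for Mvd (0.19 to 1.51), 0.16 for Fdft1 (−0.26 to 0.59) and 0.17 for Srebf2 (−0.15 to 0.49). None of these was called, with a limma adjusted p of 0.201 for Mvd, and a p that misses the threshold does not show that the effects were alike. In all, 8 of 33 had an unadjusted p below 0.05 (14.6% of all genes).

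Other genes of the pathway were read from a second list of 34 symbols, of which 32 were found and 31 tested. In luciferase livers 3 of 31 rose after ethanol and 0 fell, which is 9.68% of the list, close to the 7.75% of all genes called (4.62% higher and 3.13% lower). Srebf1, which encodes the SREBP that mainly drives fatty acid synthesis, rose by 0.89 on the log2 scale (SE 0.19, limma adjusted p = 0.0110; 0.0641 when the luciferase libraries were fitted alone). Osbp, an oxysterol-binding carrier at the Golgi, rose by 0.67 (SE 0.12, limma adjusted p = 0.00412). Ube2g2, a ubiquitin-conjugating enzyme of endoplasmic reticulum degradation, rose by 0.71 (SE 0.18, limma adjusted p = 0.0251), a call that was lost without M2, M10, M11 or M12 (limma adjusted p from 0.0535 to 0.109). Nr1h3, which encodes the receptor LXR alpha, was at −0.43 (limma adjusted p = 0.0505). It passed in 10 alternatives, among them edgeR (adjusted p = 0.0497) and DESeq2 (adjusted p = 0.0116) on recovered reads. Vldlr, a lipoprotein receptor, was at 1.01 (limma adjusted p = 0.0729) with groups that overlapped. It passed by edgeR (adjusted p = 0.0356) and DESeq2 (adjusted p = 0.00807) on recovered reads and without M10 (limma adjusted p = 0.00741).

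In LbNOX livers 0 of these 31 passed after ethanol, where 0.00737% of all genes did. Nr1h3 was the nearest, at −0.78 (SE 0.13, limma adjusted p = 0.0716), with every LbNOX ethanol library below every LbNOX water library; it passed by DESeq2 on recovered reads (adjusted p = 3.99e-05), without M14 (limma adjusted p = 0.0353) and without M3 and M8 (0.0268). Vldlr was at 0.996 in LbNOX livers (limma adjusted p = 0.276), and every LbNOX ethanol library was above every LbNOX water library. Between LbNOX water and luciferase water livers 0 of 31 passed by limma, and neither did any other gene tested (0%). After ethanol, 1 of 31 was called higher and 3 lower in LbNOX than in luciferase livers, which is 12.9% of the list against 6.06% of all genes (2.24% higher and 3.82% lower). LbNOX livers had lower Srebf1 (−1.15, limma adjusted p = 0.00723), Osbp (−0.68, limma adjusted p = 0.0103) and Gramd1c (−0.999, limma adjusted p = 0.0228), a gene of the family that carries cholesterol from the plasma membrane inward. They had higher Lipa (0.76, limma adjusted p = 0.0425), the lysosomal lipase that frees cholesterol from its esters. Calls were lost for Srebf1 when only the ethanol libraries were fitted (limma adjusted p = 0.0536), for Osbp without M10, M12 or M15 (limma adjusted p from 0.0538 to 0.0572), and for Gramd1c in that same fit (0.0662) and without M10, M12, M13 or M15 (0.0759 to 0.108). The Lipa call was lost without M1, M2, M6, M7, M10, M11, M12, M13 or M15 (limma adjusted p from 0.0549 to 0.156), with quantile normalization (0.0517) and without the mean-variance trend (0.0582). In the difference of the ethanol effects, 1 of 31 passed (3.23%, against 1.67% of all genes), Srebf1 at −1.18 (limma adjusted p = 0.0486). That call held without M4 or M11 and was lost without any other single library (limma adjusted p from 0.0526 to 0.133). It was also lost without M3 and M8 together (limma adjusted p = 0.0707), without the mean-variance trend (0.0744) and with no filter on low values (0.0562).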

How the data were processed

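Liver RNA was sequenced from mRNA libraries (KAPA mRNA HyperPrep, according to the labels' protocols). The authors' table gives each gene a signal in each library: counts that they had divided by a factor per library before they deposited them. Salmon 1.5.1, DESeq2 1.30.1 and mm10 stand in the submitters' processing notes, with no role stated. A column's group comes from the header, which gives no replicate number.

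All 244950 values became whole within 0.001 once divided by the step of their library (100%), where a read was worth 0.599 to 1.38 normalized counts. The recovered reads gave the depths, and edgeR 4.0.16 on them called 1049 genes for ethanol in luciferase livers, against 1052 by limma; DESeq2 1.42.0 was a further alternative. Every pair of replicates differed by more than sampling noise. Genes reaching 10 normalized counts in 3 or more libraries entered 1 limma 3.58.1 fit (R 4.3.3; trend and robust options) of the 4 groups with 5 contrasts, on log2 of the normalized count plus 1, and fold changes are on that scale. P-values were adjusted by Benjamini-Hochberg over all genes tested, and a gene with an adjusted p below 0.05 was called. The fit was first tested on simulated data. Spreadsheet-style dates stood in place of 23 gene symbols.

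The genes of the set and all lists were chosen with earlier results of these data known. Values per library are given for genes called in any contrast and for the gene of smallest p in each role after ethanol in luciferase livers; up to 6 genes of the second list may be named per contrast. Other genes given per library were chosen after their values were seen. Markers of 8 tissues or cell types were looked up, and none was called in any contrast. Promoter windows are those of RefSeq on GRCm38.p6, and gene positions those of GENCODE vM21. Alternatives were quantile normalization, no mean-variance trend, other filters (none, or 50 in 3 libraries), pseudocounts of 0.5 and 10, a fit of the groups compared alone, the omission of M3 and M8, edgeR, DESeq2, and each library left out.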

Additional observations from a re-analysis of the deposited data

Results flagged for a closer look

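The test of the difference between the ethanol effects, LbNOX minus luciferase, called Aacs (−2.05 on the log2 scale, limma adjusted p = 0.0398) and Stard4 (−1.32, limma adjusted p = 0.0449). Both calls stood near the threshold and were lost without the mean-variance trend. With each library left out in turn, the Aacs call was lost in 10 of 15 fits and the Stard4 call in 12 of 15.

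In groups of 4 or 5 libraries, a single library stood far from the others for 4 of 66 combinations of gene and group, where chance gives about 1 in 20. Aacs in the LbNOX water library M8 was 784 normalized counts, against 1248 to 1271 in the other libraries of that group. Sc5d in M8 was 4058, against 4999 to 5159 in the others. Fdft1 in the luciferase water library M5 was 1461, against 1063 to 1137 in the others. Sqle in the luciferase water library M3 was 1039, against 449 to 620 in the others.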

How the results depend on the processing

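No paired analysis was possible because the columns of the table carry no replicate number. No log2 fold change of a called gene changed sign in any alternative. For ethanol in luciferase livers, the 4 genes called higher numbered 6 by DESeq2 on recovered reads and 2 to 5 when each library was left out. The 5 called lower numbered 2 when only the groups compared were fitted, 3 without M3 and M8, and 2 to 7 when each library was left out. Between LbNOX and luciferase livers after ethanol, the 3 called lower numbered 5 without M3 and M8, 5 by DESeq2 and 2 to 5 with libraries left out. In the difference of the ethanol effects, the 2 called lower numbered 0 without the mean-variance trend and 0 to 2 with libraries left out. In the other comparisons 0 of 33 were called under every alternative. Over all genes, DESeq2 on recovered reads called 282 for ethanol in LbNOX livers and the omission of M3 and M8 gave 142, against 1 by limma. The 1052 genes called by limma for ethanol in luciferase livers, from which the 7.75% comes, numbered 446 without M10, 623 without M12, 611 when only the groups compared were fitted and 1621 by DESeq2. The 822 between LbNOX and luciferase livers after ethanol numbered 299 without M10, 332 without M12, 399 without M13, 320 without M15 and 1349 by DESeq2. The 227 in the difference of the ethanol effects numbered 64 without M10 to 403 without M8 with single libraries left out, 151 without the mean-variance trend, 395 without M3 and M8 and 633 by DESeq2. With 3 to 5 libraries in a group, changes of the size of Srebf2 and Scap stand near the threshold.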
